A study of Mus musculus with 10 samples.

Results

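The regional homeobox genes described here are Dlx1, Dlx2, Dlx5, Dlx6, Gsx2, Emx2, Pax6, Meis1, Meis2 and Lhx2. They were chosen by name and not by a rule on their values, although earlier results of these data were known. They are the 10 rows with these symbols among the 48795 genes of the deposited expression table. RNA was sequenced in 10 libraries from cultures of neural stem cells and their progenitors (NSC/NPCs), grown from the subependymal zone (SEZ), the germinal niche along the lateral ventricles, taken from mice aged 10 weeks. WT cells were compared with cells labelled p27KO, from Cdkn1b mutant mice that lack the cyclin-dependent kinase inhibitor p27 and are kept on a C57BL/6J background. The labels conflict for the 4 p27KO libraries, whose description reads WT while their title names p27 and their genotype reads p27KO, and the genotype was used. PRO cells (3 WT and 2 p27KO libraries) were neurospheres that had grown for 3 days in vitro (DIV) with 20 ng/ml EGF and 10 ng/ml FGF. The study's results section names a longer growth for these cells than its methods, whose 3 days are given here. DIFF cells (3 WT and 2 p27KO libraries) had been seeded at 40000 per cm2 on Matrigel with FGF for 2 days, and were then deprived of mitogens and given 2% FBS for 24 h (2 + 1 DIV). Serum, substrate, plating and mitogen withdrawal therefore all changed together from PRO to DIFF. The labels do not say which animals gave each culture, so p-values measure the spread between these libraries, some of which may be technical.

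Homeobox genes code for transcription factors that bind DNA through a homeodomain, and in the forebrain they are switched on in regional domains that progenitors keep into adult life. Dlx and Gsx factors mark the ventral (subpallial) territory, whose adult progenitors give GABAergic interneurons of the olfactory bulb. Emx2, Pax6 and Lhx2 pattern the dorsal (pallial) territory, and Pax6 also acts in a subset of olfactory bulb neurons, whereas Meis1 and Meis2 belong to the TALE class of homeodomain proteins, which bind DNA together with Pbx partners. Bulk libraries cannot tell fewer cells of a type from less RNA per cell, which holds for every level given below.

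Before the levels, some properties of the cultures were checked. Library totals ranged from 19190068 to 25291674 counts. Libraries labelled p27KO still held Cdkn1b counts (90.7 to 114 counts scaled to the library total, CPM, in PRO against 103 to 112 in WT, and 137 to 140 in DIFF against 205 to 209 in WT), and which exons these reads covered was not analysed here. The 4 libraries labelled p27KO had Xist at 2258 to 3595 CPM and the WT libraries at no more than 2.57 CPM, so genotype and sex coincided and cannot be told apart. Dividing-cell markers fell from PRO to DIFF, 6 of 6 in each genotype, from a summed 1972 to 2146 CPM to 138 to 265 CPM in WT and from 2117 to 2245 CPM to 652 to 758 CPM in p27KO. Over the same step 5 of 6 astrocyte markers rose in each genotype (summed 781 to 879 CPM in PRO and 2380 to 3087 CPM in DIFF of WT), as did 3 of 7 tested neuroblast and neuron markers. Progenitor markers summed to 7503 to 9977 CPM in each library, but single markers moved in opposite directions: of 8 tested, 3 rose and 3 fell in WT and 4 rose and 3 fell in p27KO. Among all tested genes, 33.5% rose and 33.9% fell in WT, and 27.5% rose and 30.2% fell in p27KO. Counts of 3 of 7 or 3 of 8 markers lie near those shares. Nes, an intermediate filament of neural progenitors, went from 1515 to 2012 CPM in WT PRO to 156 to 238 CPM in WT DIFF, and from 1476 to 1735 CPM to 180 to 216 CPM in p27KO. Ependymal markers summed to 15.5 to 22.4 CPM in WT PRO and 86.2 to 103 CPM in WT DIFF, and to 16.1 to 19.6 CPM and 85.0 to 91.6 CPM in p27KO. Nearly all of that sum was Foxj1 (13.7 to 19.8 CPM in WT PRO and 85.1 to 102 CPM in WT DIFF). It was the 1 ependymal marker of 4 that was tested. Rarres2 was lower in p27KO DIFF (0.595 to 0.809 CPM) than in p27KO PRO (0.950 to 1.48 CPM) and its stages overlapped in WT. Ccdc153 and Tmem212 stayed under 10 counts in every library. Microglial markers summed to no more than 0.580 CPM. Whether these marker shifts reflect a change in cell makeup was not tested, nor was their part in the changes below.

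To show the regulatory sequence that lies in front of these genes, the 250 bases before the RefSeq transcription start (GRCm38.p6) were read for the 8 members with an entry, which gave 10 windows. The 4 windows that held no annotated exon are printed 5′ to 3′ on the strand of the gene, and they cover different outcomes in the results: Pax6 rose, Dlx2 did not pass the test, Lhx2 varied between replicates and Gsx2 was nearly without reads. Capitals mark every match, on either strand, to 5 motifs: the homeodomain core TAATTA, the Meis core TGACAG, the CCAAT box CCAAT, the TATA box TATAAA and the E-box CACGTG.
Dlx2, chr2:71546755-71547004, minus strand: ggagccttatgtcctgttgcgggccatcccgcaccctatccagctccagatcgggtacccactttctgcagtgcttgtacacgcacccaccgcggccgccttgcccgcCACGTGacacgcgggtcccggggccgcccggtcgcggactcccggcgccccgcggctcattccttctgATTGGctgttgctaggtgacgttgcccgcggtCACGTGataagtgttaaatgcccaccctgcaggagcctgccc
Gsx2, chr5:75075351-75075600, plus strand: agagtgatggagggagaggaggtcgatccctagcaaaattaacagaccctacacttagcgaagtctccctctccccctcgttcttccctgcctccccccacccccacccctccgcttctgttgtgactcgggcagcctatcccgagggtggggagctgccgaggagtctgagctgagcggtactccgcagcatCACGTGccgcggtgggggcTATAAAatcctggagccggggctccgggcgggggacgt
Pax6, chr2:105668646-105668895, plus strand: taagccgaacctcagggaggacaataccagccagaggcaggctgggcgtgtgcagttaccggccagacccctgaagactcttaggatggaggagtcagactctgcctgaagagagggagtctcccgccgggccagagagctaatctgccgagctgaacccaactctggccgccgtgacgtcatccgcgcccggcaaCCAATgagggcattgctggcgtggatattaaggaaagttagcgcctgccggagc
Lhx2, chr2:38339031-38339280, plus strand: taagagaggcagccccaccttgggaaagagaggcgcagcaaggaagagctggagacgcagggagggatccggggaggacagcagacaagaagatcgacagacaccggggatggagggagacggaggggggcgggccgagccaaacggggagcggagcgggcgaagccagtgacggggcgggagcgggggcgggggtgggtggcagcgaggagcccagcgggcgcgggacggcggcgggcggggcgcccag
The window of Dlx2 held a CCAAT match that began 74 bases before the start and E-box matches that began 142 and 42 bases before it. Gsx2 had an E-box at 57 bases and a TATA match at 38 bases, Pax6 had a CCAAT match at 54 bases, and the Lhx2 window, at 72.8% G and C against a median of 52.4% over all windows, held none of the 5 motifs. None of these matches overlapped another. Among 32851 windows of the same length, 33.8% held CCAAT, 6.02% CACGTG, 12.4% TATAAA, 15.9% TGACAG and 4.84% TAATTA, so a CCAAT match is common. A match is a description of letters and not a bound site.

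Of the 10 members, 7 passed the expression filter, which discarded genes under 1 CPM in at least 4 of the 10 libraries and left 12859 genes. Changes were tested by quasi-likelihood in edgeR, each adjusted p being corrected over these genes after Benjamini and Hochberg. Per length, as TPM over the union of annotated exons, the WT PRO levels ran from Emx2 at 39.0 ± 1.75 (SD, n = 3) through Meis2 at 26.4 ± 3.22, Meis1 at 20.0 ± 2.92, Lhx2 at 18.0 ± 3.81 and Pax6 at 9.46 ± 0.518 to Dlx1 at 1.28 ± 0.342 and Dlx2 at 1.27 ± 0.767. The ranges of Meis1 and Lhx2 overlapped, and so did those of Dlx1 and Dlx2, whereas the other neighbours in this order were separated. In WT DIFF the order began with Meis2 at 49.4 ± 3.80 TPM and Emx2 at 43.0 ± 5.41 TPM, whose ranges overlapped (46.2 to 53.6 and 36.9 to 47.2 TPM). Pax6, at 18.3 ± 0.562 TPM, then reached the range of Lhx2 (21.7 ± 5.21 TPM). In p27KO PRO the order was the same down to Pax6, from Emx2 at 45.5 ± 1.12 TPM (SD, n = 2) to Pax6 at 8.91 ± 0.516 TPM, and in p27KO DIFF Emx2 at 56.1 ± 0.410 TPM and Meis2 at 55.2 ± 1.56 TPM overlapped, ahead of Meis1 at 33.0 ± 3.37, Lhx2 at 25.0 ± 8.23, Pax6 at 19.0 ± 1.35, Dlx2 at 2.28 ± 0.377 and Dlx1 at 0.723 ± 0.184 TPM. The subpallial members lay below all dorsal and TALE members that were tested, in each stage.

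**Figure D1:**
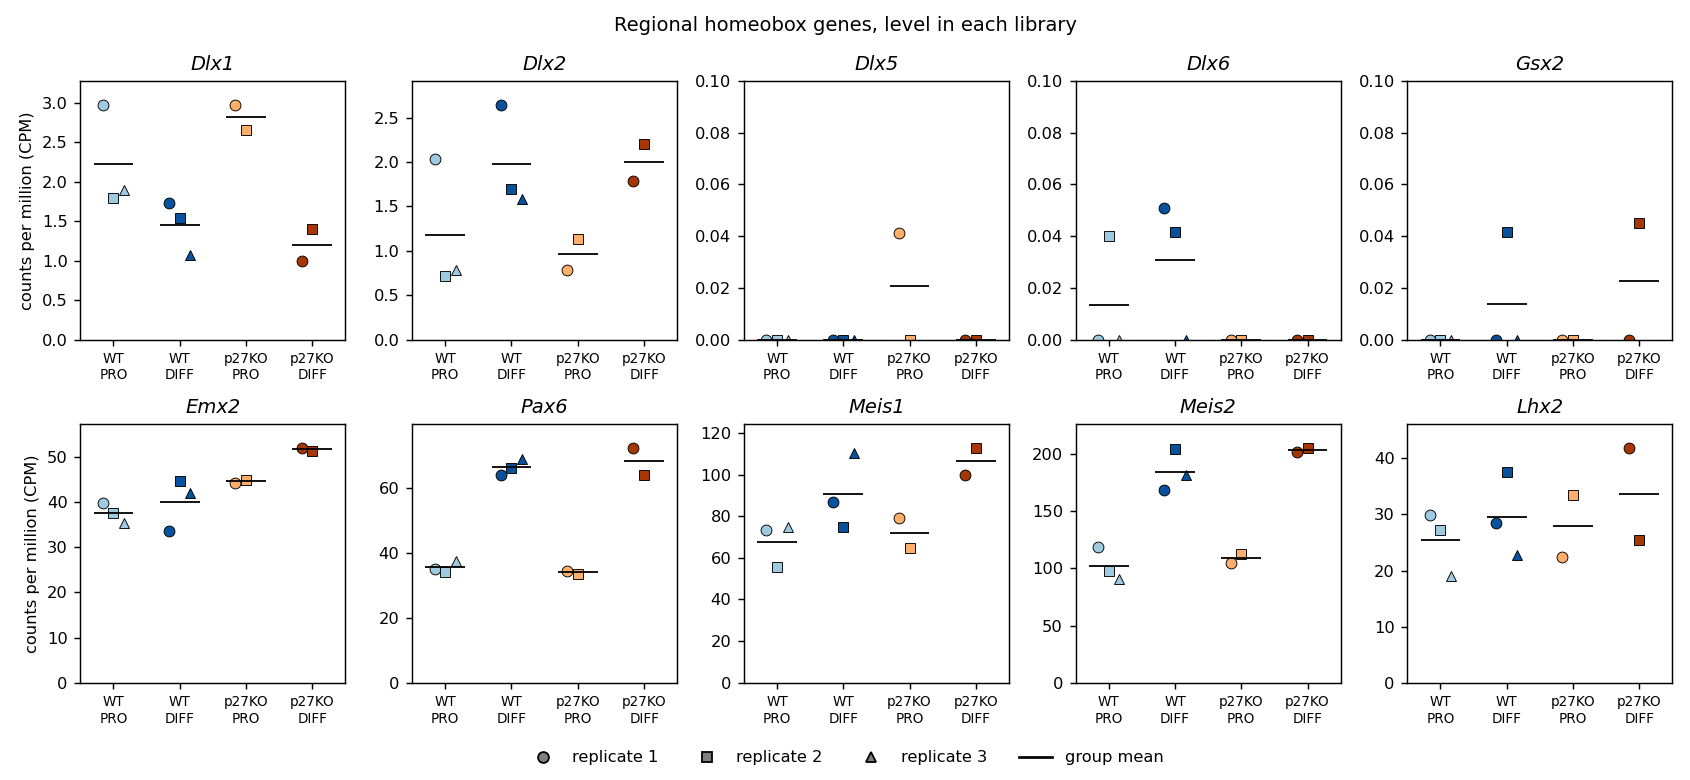
Level of each of the 10 genes (CPM, linear axis that starts at 0 and differs between panels) in each library, by group; symbols give the replicate and bars the group mean. Pax6 and Meis2 were higher in every DIFF library than in any PRO library, while Dlx5, Dlx6 and Gsx2 had at most 1 read in a library.

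The first question was what the step from PRO to DIFF did to regional genes in WT cells. Pax6, Meis1 and Meis2 rose, no member fell, and Dlx1, Dlx2, Emx2 and Lhx2 did not pass the test. In the background, 33.5% of all tested genes rose and 33.9% fell in this comparison, so 3 risers among 7 members is a share near the background. The median log2 fold change was 0.41 over the 7 tested members and -0.00 over all tested genes.

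In p27KO cells the members that rose were again Pax6, Meis1 and Meis2, and Dlx1 fell. Here 27.5% of all tested genes rose and 30.2% fell. The median change was 0.54 on the log2 scale over the 7 members and -0.03 over all genes. Neither comparison shares libraries with the other, although all 10 libraries contributed to the estimate of the spread.

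**Figure D2:**
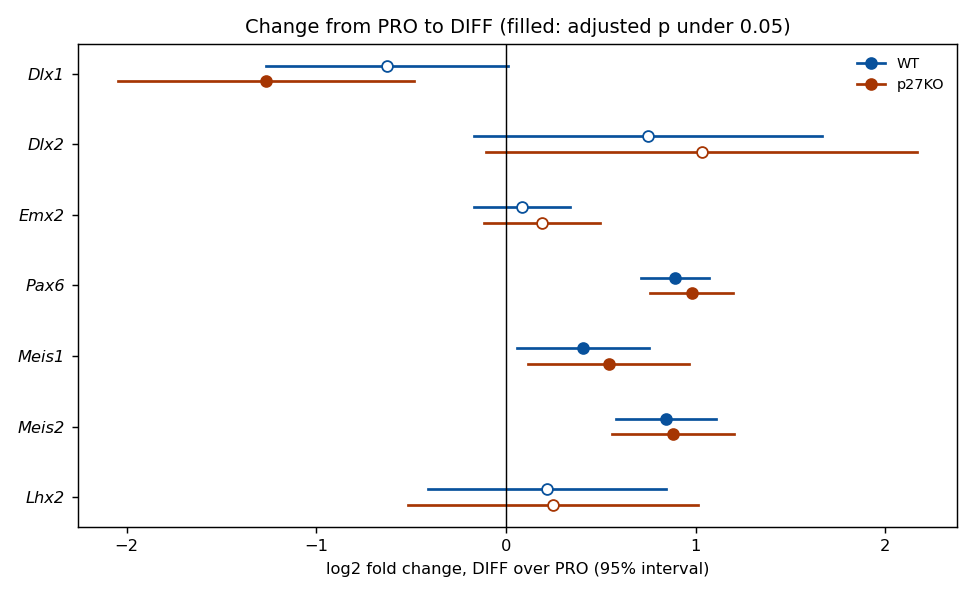
Log2 fold change from PRO to DIFF (x axis, points) with its 95% interval (lines) for the 7 tested genes in WT and p27KO cells; filled points had an adjusted p under 0.05. Pax6, Meis1 and Meis2 lay above 0 in both genotypes, and Dlx1 lay below 0 in both but was called in p27KO alone.

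Dlx1 (chr2:71528113-71533981) and Dlx2 (chr2:71543408-71546754) are a convergent pair of neighbouring genes whose ends lie 9426 bases apart, and their products are required together for the migration of ventral interneurons. Dlx1 had 57, 45 and 41 counts in the WT PRO libraries (2.97, 1.79 and 1.89 CPM) and 34, 37 and 27 in WT DIFF (1.73, 1.53 and 1.07 CPM). In p27KO it had 72 and 54 counts in PRO (2.97 and 2.66 CPM) and 25 and 31 in DIFF (0.991 and 1.39 CPM). Every DIFF library was lower than every PRO library of the same genotype. The log2 change in p27KO was -1.27 (SE 0.35; 2.41-fold lower; adjusted p = 0.0111), and in WT it was -0.63 (SE 0.28; 95% interval -1.26 to 0.01; adjusted p = 0.0750). The p27KO call was lost without DIFF replicate 1, which left -1.04 (adjusted p = 0.0845).

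For Dlx2 the fitted change was in the other direction. It had 39, 18 and 17 counts in WT PRO (2.03, 0.718 and 0.784 CPM) and 52, 41 and 40 in WT DIFF (2.65, 1.70 and 1.58 CPM). In p27KO it had 19 and 23 counts in PRO (0.785 and 1.13 CPM) and 45 and 49 in DIFF (1.78 and 2.20 CPM). WT PRO replicate 1 stood above both other WT PRO libraries and inside the WT DIFF range on the CPM scale, and the p27KO stages did not overlap. The log2 change was 0.75 in WT (SE 0.41; interval -0.17 to 1.66; adjusted p = 0.131) and 1.03 in p27KO (SE 0.51; interval -0.10 to 2.17; adjusted p = 0.107). Without WT PRO replicate 1 the WT change was 1.37 (adjusted p = 0.00667) and the p27KO change passed too (adjusted p = 0.0328). With the replicate number as a block in fits of 1 genotype, both also passed (0.83, adjusted p = 0.0445, in WT and 1.07, adjusted p = 0.0383, in p27KO). Same-numbered p27KO libraries did not deviate together (r = -0.20), so the p27KO block rests on numbers that may not match the stages. Dlx2 lay under 1 CPM in 3 libraries, all of them PRO, so it was 1 library away from removal by the filter.

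Because the fitted changes of these neighbours had opposite signs, their balance was set out within each library. In PRO there were 0.264 to 0.684 Dlx2 reads for each Dlx1 read, and in DIFF 1.11 to 1.80. The ranges did not overlap in either genotype. Dlx1as, a transcript antisense to Dlx1, had 9, 13 and 17 counts in WT PRO, 35, 44 and 39 in WT DIFF, 12 and 16 in p27KO PRO and 38 and 38 in p27KO DIFF. Every DIFF library had more Dlx1as reads than every PRO library, but the gene was under the expression filter and was not tested. Its exons share 335 bases with the 5396 exon bases of Dlx1, and the sources do not state whether counting used strand, so reads in that stretch cannot be told apart.

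**Figure D3:**
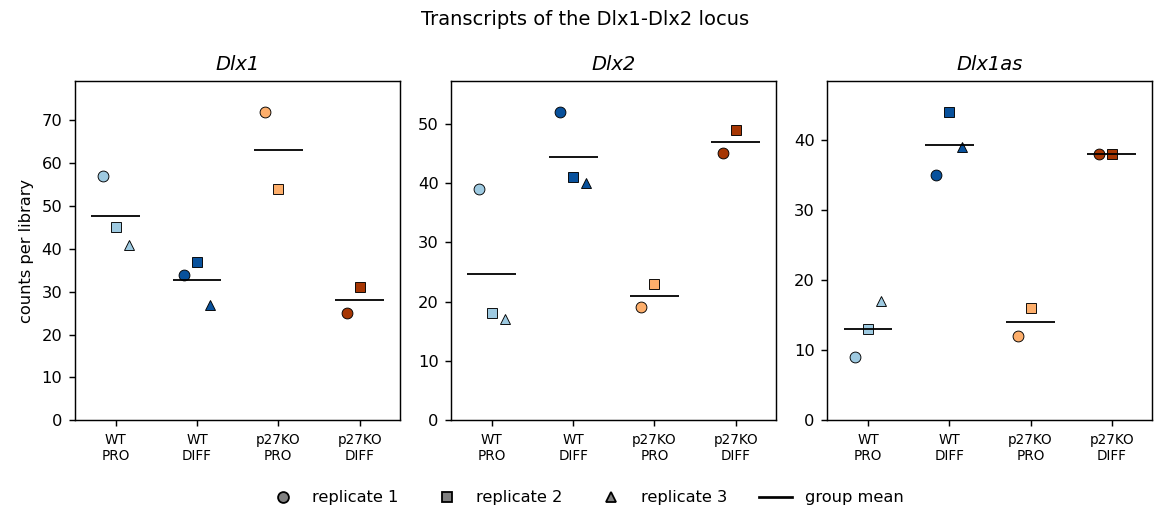
Counts per library (y axis from 0) of Dlx1, Dlx2 and the antisense transcript Dlx1as in the 4 groups; symbols give the replicate and bars the group mean. Dlx1 counts were lower in every DIFF library than in any PRO library of the same genotype, Dlx1as counts were higher, and Dlx2 counts were higher, narrowly in WT (39 in PRO replicate 1 and 40 in the lowest DIFF library). Scaled to library totals, the WT stages of Dlx2 overlapped (2.03 CPM in PRO replicate 1 and 1.58 CPM in DIFF replicate 3).

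Dlx5 (chr6:6877805-6882085) and Dlx6 (chr6:6863334-6868568), the second convergent pair of the family and acting later in the same lineage, were almost without reads. Dlx5 had 1 read in all 10 libraries, in p27KO PRO, and Dlx6 had 3, of which 2 were in WT DIFF and 1 in WT PRO. Over the 227015460 counts of the series, 3 counts correspond to 0.0132 CPM, so neither gene was measured above that floor. Gsx2 (chr5:75075601-75077893), an early ventral progenitor factor that acts upstream of the Dlx genes, had 2 reads, 1 in WT DIFF and 1 in p27KO DIFF. Its paralogue Gsx1 was read in all 10 libraries, at 36 to 124 counts. At this depth no difference in Dlx5, Dlx6 or Gsx2 between groups was detectable.

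Among the dorsal factors, Pax6 (chr2:105668900-105697364), a paired-box and homeobox factor of radial glia and of a subset of olfactory neurons, gave the most precise change. It stood at 34.9, 34.2 and 37.3 CPM in WT PRO and 63.8, 66.1 and 68.9 CPM in WT DIFF. The p27KO libraries had 34.5 and 33.4 CPM in PRO and 72.3 and 63.9 CPM in DIFF. No DIFF library came near a PRO library. The rise was 1.85-fold in WT (log2 0.89, SE 0.08; adjusted p = 7.12e-06) and 1.97-fold in p27KO (log2 0.98, SE 0.10; adjusted p = 3.00e-05). Within the WT replicate numbers the log2 ratio of DIFF to PRO was 0.84, 0.98 and 0.85.

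Emx2 (chr19:59458372-59465357), a patterning factor of the dorsal and medial telencephalon, was abundant and did not pass the test for stage. WT PRO libraries had 39.8, 37.6 and 35.3 CPM and WT DIFF libraries 33.5, 44.7 and 42.0 CPM, which overlapped. The p27KO libraries had 44.2 and 44.9 CPM in PRO and 52.0 and 51.3 CPM in DIFF, with no overlap. The log2 change was 0.08 in WT (SE 0.11; interval -0.17 to 0.34; adjusted p = 0.523) and 0.19 in p27KO (SE 0.14; interval -0.12 to 0.49; adjusted p = 0.262). Its paralogue Emx1, a pallial gene, had 1 read in all libraries against 9705 for Emx2. The antisense Emx2os, whose exons share 264 bases with the 3002 of Emx2, was at 7.52 to 8.55 CPM in WT PRO and 8.60 to 11.8 CPM in WT DIFF (log2 0.42, SE 0.15; adjusted p = 0.0278), a call that was lost with the replicate block (adjusted p = 0.0531), with only the groups compared (adjusted p = 0.0554), with no filter (adjusted p = 0.131) and without replicate 2 or 3 of either WT stage (adjusted p from 0.0661 to 0.104).

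Lhx2 (chr2:38339281-38369733), a LIM-homeodomain factor of dorsal progenitors, varied more between replicates of a group than any other member above 10 CPM. It had 29.9, 27.2 and 19.0 CPM in WT PRO, 28.4, 37.5 and 22.8 CPM in WT DIFF, 22.4 and 33.4 CPM in p27KO PRO and 41.9 and 25.5 CPM in p27KO DIFF. The stages overlapped in both genotypes. The log2 change was 0.22 in WT (SE 0.28; interval -0.41 to 0.85; adjusted p = 0.508) and 0.25 in p27KO (SE 0.34; interval -0.52 to 1.01; adjusted p = 0.556). Its coefficient of variation within groups was 22.3% to 34.5%, against 2.29% to 8.75% for Pax6.

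Replicates of a group also stood apart in other regional genes, which were chosen here after their values were seen. Zic1, a septal and medial factor, was at 9.93 and 9.74 CPM in replicate 2 of WT PRO and WT DIFF, at 13.6 CPM in p27KO PRO replicate 2 and at 14.8 CPM in p27KO DIFF replicate 1, and no other library exceeded 0.990 CPM. Six3, a ventral and anterior factor, was lowest in replicate 3 of both WT stages (33.1 CPM in PRO and 45.2 CPM in DIFF), as was Lhx2. In p27KO the higher Lhx2 library of each stage was also the library with high Zic1. The same held for replicate 2 of WT DIFF (37.5 CPM of Lhx2), but not in WT PRO, where Lhx2 was highest in replicate 1 (29.9 CPM) and Zic1 in replicate 2 (27.2 CPM of Lhx2). These values are set side by side as a description, and their part in the spread of Lhx2 was not tested.

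**Figure D4:**
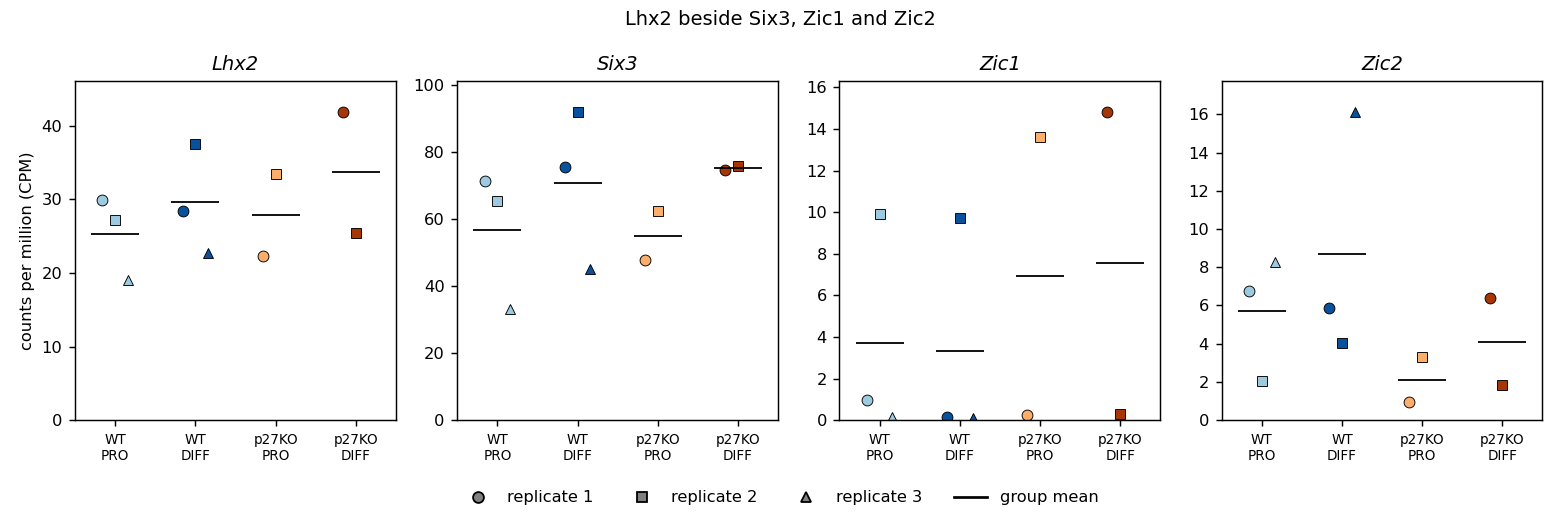
CPM per library (y axis from 0, different in each panel) of Lhx2 and the related regional genes Six3, Zic1 and Zic2; symbols give the replicate and bars the group mean. Zic1 was near 0 in 6 libraries and at 9.74 to 14.8 CPM in 4, and Lhx2 and Six3 were lowest in replicate 3 of both WT stages.

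Meis2 (chr2:115863064-116065839), a TALE cofactor used in adult olfactory neurogenesis, was the member with the most reads, 33982 in all. It had 119, 97.4 and 90.3 CPM in WT PRO and 168, 204 and 181 CPM in WT DIFF. In p27KO it had 105 and 113 CPM in PRO and 202 and 205 CPM in DIFF. The stages were well separated in both genotypes. The rise was 1.80-fold in WT (log2 0.84, SE 0.12; adjusted p = 0.000140) and 1.84-fold in p27KO (log2 0.88, SE 0.14; adjusted p = 0.000604).

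Meis1 (chr11:18879817-19018985) rose less. WT PRO libraries had 73.3, 55.6 and 74.6 CPM and WT DIFF libraries 86.9, 74.9 and 110 CPM, so the lowest DIFF library was just above the highest PRO library. The p27KO values were 79.3 and 64.6 CPM in PRO and 99.98 and 113 CPM in DIFF. The log2 change was 0.41 in WT (SE 0.16; 1.33-fold; adjusted p = 0.0400) and 0.54 in p27KO (SE 0.19; 1.45-fold; adjusted p = 0.0333). Both calls were narrow. Leaving out any of WT DIFF replicate 1 (adjusted p = 0.0510) or 3 (0.25, adjusted p = 0.161), WT PRO replicate 2 (0.29, adjusted p = 0.127) or either p27KO DIFF library (adjusted p = 0.0524) ended the WT call, and leaving out p27KO DIFF replicate 1 (adjusted p = 0.0617) or 2 (adjusted p = 0.147) or p27KO PRO replicate 2 (adjusted p = 0.173) ended the p27KO call.

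The second question was whether p27 made a difference. No tested member passed the test for genotype in PRO, in DIFF or for the size of the stage change. In the background 0.0156% of tested genes were called in PRO, 2.04% in DIFF and 0.389% for the interaction, and 0 of 7 members lies near those shares. At an unadjusted p under 0.05 the member counts were 0 in PRO, 1 in DIFF and 0 for the interaction, and DESeq2 also called 0 in each.

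Emx2 was the member at an unadjusted p under 0.05. Its p27KO libraries were above all WT libraries of the same stage, at 44.2 to 44.9 CPM against 35.3 to 39.8 CPM in PRO and at 51.3 to 52.0 CPM against 33.5 to 44.7 CPM in DIFF. The log2 difference was 0.27 in PRO (SE 0.12; interval -0.01 to 0.55; adjusted p = 1.00) and 0.38 in DIFF (SE 0.12; 1.30-fold; interval 0.10 to 0.66; adjusted p = 0.191). Neither passed the adjustment over 12859 genes, and genotype and sex cannot be told apart here. All 6 dividing-cell markers were higher in p27KO DIFF than in WT DIFF, and their part in the Emx2 difference was not tested.

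For the other members the intervals show how large a difference could have gone unseen. Pax6 was bounded most closely, with a log2 difference of -0.04 in PRO (interval -0.24 to 0.17) and 0.05 in DIFF (interval -0.14 to 0.25). Meis2 differed by 0.12 in PRO (interval -0.17 to 0.41) and 0.15 in DIFF (interval -0.14 to 0.45), and Meis1 by 0.11 (interval -0.28 to 0.50) and 0.25 (interval -0.14 to 0.63). Lhx2 had intervals of -0.53 to 0.87 in PRO and -0.50 to 0.89 in DIFF. The low counts of the Dlx pair left wide intervals, -0.30 to 1.06 in PRO and -1.0 to 0.48 in DIFF for Dlx1 and -1.34 to 0.84 in PRO and -0.94 to 1.01 in DIFF for Dlx2.

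The interaction, which is the p27KO stage change minus the WT stage change, was 0.09 for Pax6 (interval -0.19 to 0.37), 0.04 for Meis2 (-0.38 to 0.45), 0.13 for Meis1 (-0.42 to 0.68) and 0.10 for Emx2 (-0.29 to 0.50). For Dlx1, which was called in p27KO and not in WT, it was -0.64 (interval -1.65 to 0.37; adjusted p = 1.00), so the changes of the 2 genotypes were not shown to differ. Dlx2 gave 0.29 (interval -1.17 to 1.74) and Lhx2 0.03 (interval -0.96 to 1.02).

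**Figure D5:**
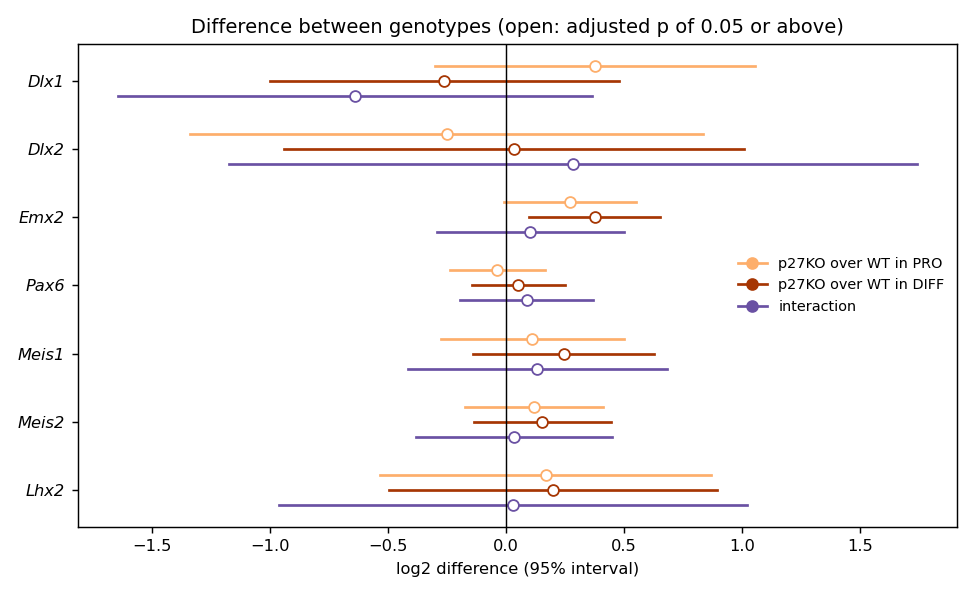
Log2 difference of p27KO over WT in PRO and in DIFF, and the interaction (p27KO minus WT stage change), with 95% intervals (lines), for the 7 tested genes; open points had an adjusted p of 0.05 or above. All points are open, and the Emx2 interval in DIFF (0.10 to 0.66) is the one interval that does not include 0.

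Around the members, lists of regional and partner genes were counted in the same fits. Each count stands against the background given above, in which 33.5% of tested genes rose and 33.9% fell in WT, 27.5% rose and 30.2% fell in p27KO, and the medians were -0.00 and -0.03 on the log2 scale. Of 14 further subpallial genes 5 were tested, and 2 rose in WT and 1 in p27KO. Sp9 rose in WT by 0.59 (SE 0.22; adjusted p = 0.0406), a call that DESeq2 did not make (adjusted p = 0.0611) and that was lost with the looser filter (adjusted p = 0.0604), no filter (adjusted p = 0.180) or only the groups compared (adjusted p = 0.0652) and without WT DIFF replicate 1 or 2, WT PRO replicate 1 or 3, or either p27KO DIFF library (adjusted p from 0.0519 to 0.140), and was at -0.26 in p27KO (SE 0.28; adjusted p = 0.452). Six3 at 0.32 and Ebf1 at -0.44 in WT did not pass (adjusted p = 0.410 and 0.105), and with the replicate block Six3 passed (0.33, adjusted p = 0.0391). In p27KO Six3 was at 0.42 (adjusted p = 0.391). It passed there with the block over all groups (0.43, adjusted p = 0.0335), in p27KO alone (0.47, adjusted p = 0.0143) and with crossed p27KO numbers (0.43, adjusted p = 0.0475). Ebf1 passed in WT with only the groups compared (-0.43, adjusted p = 0.0394) and without either p27KO PRO library (adjusted p = 0.0210 and 0.0240). None of 9 pallial genes, among them Emx1, Eomes and Tbr1, was expressed highly enough to be tested.

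Of 18 genes of the GABAergic interneuron lineage 10 were tested, and 6 rose and 1 fell in WT, against 5 and 1 in p27KO. The guidance receptor Robo2 went from 37.4 to 50.2 CPM in WT PRO to 211 to 268 CPM in WT DIFF (log2 2.37, SE 0.13; adjusted p = 3.94e-07) and rose by 2.65 in p27KO (SE 0.16; adjusted p = 2.52e-06). The transcription factor Maf rose by 1.44 in WT (SE 0.18; adjusted p = 6.22e-05) and 0.89 in p27KO (SE 0.22; adjusted p = 0.00582), the second of which was lost without p27KO DIFF replicate 1 (adjusted p = 0.0544). Etv1, named after its values were seen, was the gene that fell (-0.75, SE 0.17, adjusted p = 0.00356, in WT and -0.81, SE 0.21, adjusted p = 0.00894, in p27KO). Its p27KO call was lost without p27KO DIFF replicate 2 (-0.78, adjusted p = 0.0508). The median over the tested genes of the list was 0.51 in WT, against -0.00 over all genes, and 0.40 in p27KO, against -0.03.

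For the TALE members the partner genes are the nearest comparison. All 9 partners were tested, of which 4 rose and 2 fell in WT and 3 rose and 2 fell in p27KO. Pbx3 had a log2 change of -1.10 in WT (SE 0.20; adjusted p = 0.000905) and of -1.16 in p27KO (SE 0.25; adjusted p = 0.00299). The other partner that fell was Pknox1 (-0.56, SE 0.12, adjusted p = 0.00237, in WT and -0.57, SE 0.15, adjusted p = 0.00852, in p27KO), and Meis3, the third Meis paralogue, rose in WT (0.46, SE 0.14; adjusted p = 0.0159) and was at 0.05 in p27KO (SE 0.17; adjusted p = 0.822). Both were named after their values were seen. The p27KO call of Pknox1 was lost without p27KO DIFF replicate 2 (-0.50, adjusted p = 0.0634), and the WT call of Meis3 without WT PRO replicate 2 (0.38, adjusted p = 0.0576). Pbx4 was at 0.92 in WT (SE 0.19; adjusted p = 0.00153) and 0.59 in p27KO (SE 0.22; adjusted p = 0.0454), and Tgif1 at 0.63 (SE 0.16; adjusted p = 0.00580) and 0.60 (SE 0.20; adjusted p = 0.0247). The p27KO call of Pbx4 was lost without any p27KO library, WT DIFF replicate 3 or WT PRO replicate 1 or 2 (adjusted p from 0.0524 to 0.139), with the replicate block (adjusted p = 0.0678 over all groups and 0.0692 in p27KO alone) and with the looser filter or none (adjusted p = 0.0597 and 0.164). That of Tgif1 was lost with no filter (adjusted p = 0.0501) and without p27KO DIFF replicate 1 or 2 or p27KO PRO replicate 1 (adjusted p from 0.0818 to 0.161).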

How the data were processed

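RNA from cultured subependymal NSC/NPCs was converted to cDNA and sequenced in 10 libraries. The deposited table holds RSEM expected counts per Ensembl gene, as whole numbers and not normalized. According to the study's methods and the submitters' processing notes, the authors used FastQC, Trimmomatic, cutadapt, STAR and RSEM with GRCm38 (mm10), and DESeq2 for their own tests. Versions and strand setting are not given in the sources used here.

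Counts were fitted with edgeR 4.0.16 (R 4.3.3; TMM, robust quasi-likelihood test, 4 groups together). Genes under 1 CPM in at least 4 of 10 libraries were discarded, and p-values were adjusted over the 12859 tested genes (Benjamini-Hochberg, threshold 0.05, UP or DOWN). Intervals are 95% from the moderated t distribution. Positions, exon lengths and overlaps came from GENCODE M21 (GRCm38) and promoter windows from RefSeq. TPM used the union of annotated exons, which can exceed the length of any 1 transcript, so levels per length are approximate. The scripts were tested on simulated data.

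Totals were 19190068 to 25291674 counts, and the floor is 3 counts, which covers counting error only. Replicates differed by more than sampling noise. Same-numbered WT stages deviated together (r = 0.26, 0.34 and 0.43), so the numbers may pair the WT stages, which the labels do not state. Same-numbered p27KO stages did not deviate together (r = -0.20). The fits reported have no replicate block, which entered as an alternative. Members and lists were chosen with earlier results of these data known. Named related genes are up to 4 per list with the largest absolute WT stage change; Gsx1, Emx1, Zic1 and Otx2 were added after their values were seen. Some genes that this rule names are not reported here. Alternatives were other normalization, DESeq2, looser or no filter, fewer groups, replicate blocks and each library left out.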

Additional observations from a re-analysis of the deposited data

How the results depend on the processing

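Of 602 recomputed values of the members over 35 results, 551 kept their direction and their side of the threshold, 33 reversed, 5 gained a call and 13 lost one. The calls of Pax6 and Meis2 held in both genotypes under every alternative that was run, and no member gained a genotype or interaction call. Meis1 lost its WT call with the looser filter (0.37, adjusted p = 0.0596), no filter (0.33, adjusted p = 0.117) and only the groups compared (0.41, adjusted p = 0.0622), and its p27KO call with no filter (0.47, adjusted p = 0.0766). Dlx2 passed in p27KO with only the groups compared (1.07, adjusted p = 0.0419). Members DOWN in p27KO ranged from 0 to 1 over fits that left out a library each, 0 being the fit without DIFF replicate 1. The causes were not tested.

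None of the member differences that reversed was called before or after the reversal. With the replicate block, Lhx2 in PRO was -0.0030 and Dlx2 in DIFF -0.12 between genotypes, and with the p27KO numbers crossed (an alternative chosen after seeing the data) Lhx2 was -0.023 in PRO and -0.017 in DIFF and Dlx2 -0.094 in DIFF. Apart from the results already given, the block changed no member's call. Crossing the p27KO pairs called 521 genes between genotypes in DIFF, against 390 with the pairs as numbered.

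Leaving out a library each gave these log2 ranges. For the WT stage change they were -0.019 to 0.22 for Emx2, -0.012 to 0.38 for Lhx2, -0.20 to 0.98 for Zic2 and -1.25 to 0.031 for Hoxa5. For the p27KO stage change they were -0.17 to 0.59 for Lhx2, -0.75 to 0.17 for Ebf1 (called at -0.75, adjusted p = 0.0133, without PRO replicate 1, and at 0.17 without PRO replicate 2), -0.12 to 0.20 for Meis3 (-0.017 with no filter), -0.23 to 2.12 for Zic2 and -0.17 to 0.68 for Irx1. The interaction ran from -0.34 to 0.58 for Dlx2, -0.013 to 0.21 for Emx2, -0.013 to 0.18 for Pax6, -0.089 to 0.13 for Meis2 and -0.39 to 0.37 for Lhx2. The genotype difference in PRO ran from -0.55 to 0.37 for Dlx2, -0.070 to 0.0051 for Pax6, -0.020 to 0.23 for Meis1 and -0.17 to 0.45 for Lhx2, and in DIFF from -0.12 to 0.28 for Dlx2, -0.049 to 0.15 for Pax6 and -0.22 to 0.52 for Lhx2.

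Of the related lists, the count of p27KO risers ran from 3 to 5 for the GABAergic lineage and from 1 to 3 for the TALE partners over these fits.

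Over all genes the stage comparisons called 7919 to 10173 (WT) and 5889 to 8219 (p27KO) genes. The genotype counts moved more: 262 genes in DIFF became 631 with DESeq2 and 39 with only the groups compared, 2 genes in PRO became 40 with DESeq2, and 50 interaction calls became 157 with DESeq2 and 0 to 89 over fits without a library (89 and 82 without WT DIFF replicate 1 or 2, 13 without WT PRO replicate 1, and 0 without WT PRO replicate 2 or 3 or any p27KO library). Without p27KO DIFF replicate 1 or 2, 99 or 126 genes were called between genotypes in DIFF. With 17 to 72 counts a library, depth limits what can be said of Dlx1 and Dlx2.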

Other observations

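Regional genes beyond those above were also read. Of 6 forebrain-wide genes 4 were tested, and 3 rose in WT and 2 in p27KO. Nr2f1, a nuclear receptor of forebrain patterning, rose by 1.28 in WT (SE 0.12; adjusted p = 8.02e-06) and 1.32 in p27KO (SE 0.14; adjusted p = 4.83e-05). Its paralogue Nr2f2 rose in WT by 1.31 (SE 0.50; adjusted p = 0.0432), a call that was lost with the looser filter or none (adjusted p = 0.0513 and 0.170) and without WT DIFF replicate 1 or 3, WT PRO replicate 1 or 2, or either p27KO PRO library (adjusted p from 0.0520 to 0.160), and was at 1.06 in p27KO (SE 0.59; adjusted p = 0.158). Otx1 did not pass in either genotype (0.65, adjusted p = 0.256, and 0.93, adjusted p = 0.206), but passed in p27KO with only the groups compared (0.97, adjusted p = 0.0376) and with the replicate block in that genotype alone (0.91, adjusted p = 0.0128) or with crossed p27KO numbers (0.91, adjusted p = 0.0450). The p27KO numbers as given may not match the stages (r = -0.20).

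Both tested septal and medial genes varied between cultures. Zic5 rose by 1.25 in WT (SE 0.44; adjusted p = 0.0299) and 2.11 in p27KO (SE 0.56; adjusted p = 0.0105), calls that were lost with no filter (adjusted p = 0.133 and 0.0616), in WT without DIFF replicate 3 or PRO replicate 1 or 2 (adjusted p from 0.0797 to 0.116) and in p27KO without DIFF or PRO replicate 1 (adjusted p = 0.0737 and 0.0690). Zic2 was at 0.60 (adjusted p = 0.493) and 0.95 (adjusted p = 0.427). Of 22 posterior genes 7 were tested, and 1 rose in each genotype. The midbrain gene En1 was at -0.94 in WT (adjusted p = 0.0757) and -1.27 in p27KO (adjusted p = 0.0538). It passed in WT with the replicate block in that genotype alone (-0.96, adjusted p = 0.00934), with crossed p27KO numbers (-0.95, adjusted p = 0.0330), and without WT DIFF replicate 1 or WT PRO replicate 2 (-1.41 and -1.25, adjusted p = 0.0162 and 0.0196). In p27KO En1 passed with DESeq2 (adjusted p = 0.0370), only the groups compared (adjusted p = 0.00526), the replicate block over all groups (adjusted p = 0.0420), in p27KO alone (adjusted p = 0.00194) or with crossed numbers (adjusted p = 0.0230), and without WT DIFF replicate 1 or 2 or WT PRO replicate 1 or 2 (adjusted p from 0.0295 to 0.0472). Irx1 was at 0.67 and 0.18 (adjusted p = 0.311 and 0.838) and passed in WT without WT PRO replicate 3 (1.48, adjusted p = 0.0297). Hoxa5 was at -0.43 and -1.06 (adjusted p = 0.585 and 0.282) and passed in p27KO with only the groups compared (-1.03, adjusted p = 0.00246) and with the block in that genotype alone (-1.02, adjusted p = 0.000301). For En1 and Hoxa5 the block in p27KO alone rests on numbers that may not match the stages (r = -0.20). Otx2 had 717 counts in p27KO DIFF replicate 2 and 199 in p27KO PRO replicate 1, and no more than 41 in any other library; it was named after its values were seen.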
